A study of Mus musculus with 6 samples.

Results

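The genes described here encode brakes on mTORC1, the kinase complex that drives cell growth when amino acids, energy and insulin are plentiful. They are Sesn1, Sesn2, Sesn3, Ddit4, Ddit4l, Deptor, Tsc1, Tsc2, Akt1s1 and Castor2, 10 of the 19938 genes that the array annotation named one by one. Probesets were chosen by mean level: each gene was read from a probeset annotated with it alone and, where there were several, from the brightest by its mean over the 6 arrays. The genes themselves were picked by name with earlier results of this comparison known, so its counts and p-values are descriptions and not independent support for any direction. All 10 genes passed the filter on low values and were among the 14953 genes tested.

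RNA came from the whole brain of male pups of the inbred C57BL/6J strain at postnatal day 7. Ethanol pups received 2 injections of 2.5 g/kg ethanol under the skin, as a 20% solution in saline and 2 h apart, and saline pups received the saline vehicle alone. Brains were taken 4 h after the first injection, and each array held RNA pooled from 3 males of different litters. There were 2 ethanol arrays (numbered 2 and 4 in the labels) and 4 saline arrays (1, 3, 5 and 6), from 18 mice in all, and no array measures a single animal.

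Signals from nutrients and growth factors meet on mTORC1 at the lysosome. The TSC complex switches off Rheb, the small GTPase that activates mTORC1, and Ddit4 acts through that complex. Sestrins and Castor proteins bind GATOR2 and so restrain the amino acid branch, while Deptor and Akt1s1 bind the kinase complex itself. Several of these genes are known as stress-induced: sestrin genes respond to p53, FoxO factors and ATF4, and Ddit4 to hypoxia, glucocorticoids and DNA damage. In the developing brain, loss of Tsc1 or Tsc2 in mice enlarges neurons and disturbs their wiring.

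Levels are log2 intensities as deposited, which can be compared between arrays for 1 gene but not between genes. Array medians over the tested genes lay between 8.29 and 8.38. Saline array 3 stood apart from the other arrays on the first principal component (40.9% of the variance), at 13.5. The other saline arrays lay between -2.13 and 2.95, and ethanol arrays 2 and 4 at -6.61 and -7.49, below every saline array. Among the saline arrays, array 3 was also the lowest for 9 of the 10 brake genes, so values without it are given below. Brain markers were present: all 9 neuron and all 7 astrocyte markers lay above 6.21, the 95th percentile of 1194 olfactory and vomeronasal receptor genes that serve as a guide to background. Marker means of neurons, astrocytes, oligodendrocyte lineage, microglia, choroid plexus and red blood cells overlapped between the groups. The oligodendrocyte lineage, neuron, astrocyte and microglia lists each held 1 tested marker without overlap, of 7, 9, 7 and 5 tested. Each lay below all saline arrays, as did 14.9% of all tested genes. Olig2 of the oligodendrocyte lineage had a log2 difference of -0.32 ± 0.07 (SE, limma adjusted p = 0.0827) and the neuron marker Snap25 -0.19 ± 0.06 (0.257). The astrocyte marker S100b had -0.18 ± 0.06 (0.267) and the microglia marker P2ry12 -0.12 ± 0.07 (0.502). In the same list order, 4, 5, 3 and 2 tested markers lay above 0, and 3, 4, 4 and 3 below. The mean of 6 pituitary markers, of which 3 lay above background, was 6.21 and 5.64 on the ethanol arrays against 6.39 to 6.63 on the saline arrays. Of the 3 tested pituitary markers, Gh and Cga differed by more than any brake gene (log2 differences of -1.52 ± 0.38 and -1.20 ± 0.21, SE, limma adjusted p = 0.162 and 0.0630), and Ghrhr had -0.16. On ethanol arrays 2 and 4 Gh was at 7.65 and 5.72, against 7.70 to 8.52 with saline. Cga was at 7.19 and 6.06, against 7.66 to 7.93. For both genes the ethanol arrays lay far apart, with array 4 the lower. The mean of 7 endothelium and pericyte markers, all above background, was 8.63 and 8.66 against 8.68 to 8.72. The part of these differences in the results below was not tested. In whole-brain RNA, fewer cells of a type and less RNA per cell cannot be told apart.

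The comparison of ethanol with saline pools asked which transcripts differ in the pup brain 4 h after the start of exposure. None of the 10 brake genes passed the limma test after adjustment over all tested genes, while 4 were higher with ethanol and 0 lower at an unadjusted p below 0.05. The median log2 difference of the 10 genes was 0.13 without ethanol array 2 and 0.11 without ethanol array 4. Sesn1 and Ddit4 had the largest differences, at 29.2% and 21.4% above saline. Castor2, Deptor and Sesn3 were 14.8%, 11.6% and 10.8% above saline, with smaller margins between the groups. Tsc1, Tsc2, Akt1s1 and Ddit4l differed from saline by -2.37% to 0.217%. Over all tested genes 0.0803% passed (12 genes, 9 higher and 3 lower, or 7 higher and 1 lower after each array was centred on its median, and 4 genes without ethanol array 4). The balance turned with array weights (21 higher, 35 lower) and with the dimmest 50% of genes left out (22 higher, 30 lower). In the reported fit, 3.85% of tested genes were higher and 8.44% lower at an unadjusted p below 0.05.

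**Figure D1:**
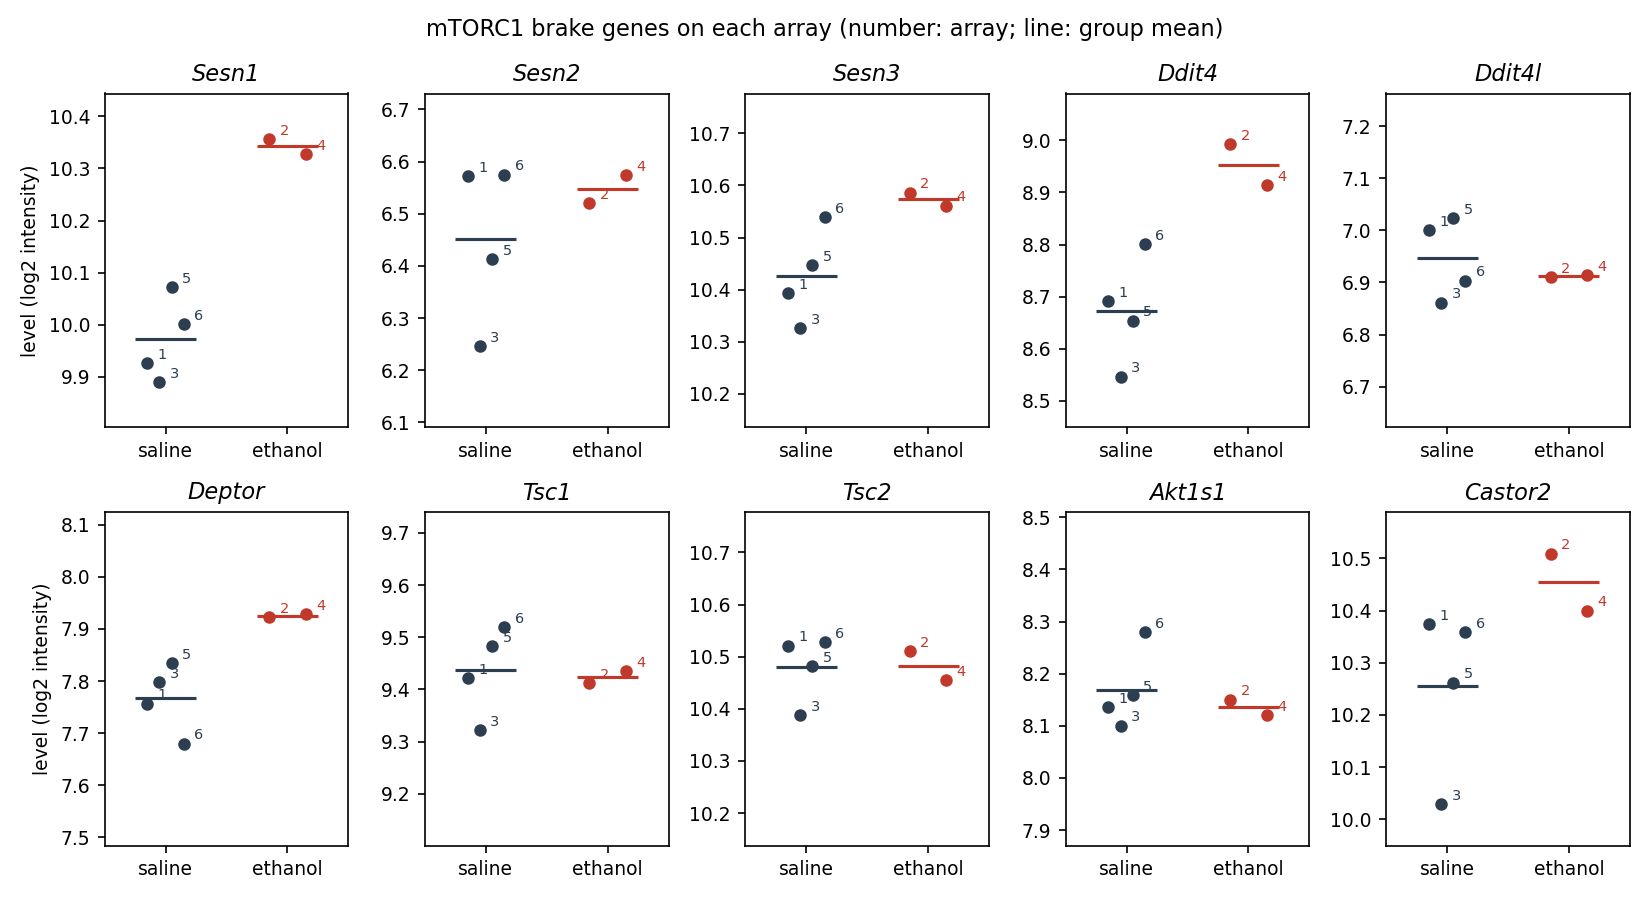
Level of each of the 10 brake genes on every array, in log2 intensity. Points are arrays with their label numbers, lines are group means, and every panel spans the same height on the log2 scale. Ethanol points lie above all saline points for Sesn1, Sesn3, Ddit4, Deptor and Castor2, with the widest gap (0.25) for Sesn1.

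Sesn1 encodes a stress-induced sestrin that binds GATOR2, and is a long-known p53 target. Its level with ethanol was 10.36 (array 2) and 10.33 (array 4). With saline it was 9.93, 9.89, 10.07 and 10.00 on arrays 1, 3, 5 and 6. The ethanol arrays lay close together, and the lower of them was 0.25 above the highest saline array. Means were 10.34 ± 0.02 (SD, n = 2) with ethanol and 9.97 ± 0.08 (SD, n = 4) with saline. Ethanol minus saline was 0.37 ± 0.07 (SE) on the log2 scale, with a 95% interval of 0.23 to 0.51 and a limma adjusted p of 0.0630. Sesn1 ranked 23rd of the tested genes by p-value and 99.8% of tested genes had a lower log2 difference. Without saline array 3 the difference was 0.34. Its adjusted p moved across the threshold with the processing: it passed in 4 of 15 alternative settings, and limma adjusted p ranged from 0.0181 with a mean-variance trend to 0.388 without ethanol array 4.

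Sesn3, a sestrin gene known as a FoxO target, followed Sesn1 in direction with a smaller difference. It lay at 10.59 and 10.56 on the ethanol arrays, and at 10.39, 10.33, 10.45 and 10.54 with saline (arrays 1, 3, 5 and 6). The groups did not overlap, but ethanol array 4 was only 0.022 above saline array 6. Its log2 difference was 0.15 ± 0.07 (SE), with a 95% interval of -0.00096 to 0.30 (limma adjusted p = 0.407), and it was 0.11 without saline array 3.

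Sesn2, the sestrin known as a leucine sensor and as a target of ATF4, overlapped between the groups and had a mean of 6.48, not far above the background guide. Its level was 6.52 and 6.57 with ethanol, and 6.57, 6.25, 6.41 and 6.58 with saline (arrays 1, 3, 5 and 6). Saline arrays 1 and 6 were as high as the ethanol arrays, and saline array 3 lay close to the background level of 6.21. The log2 difference of 0.10 ± 0.09 (SE, limma adjusted p = 0.700) had a 95% interval of -0.10 to 0.29, which overlaps that of Sesn1. Without saline array 3 it was 0.028, so most of the Sesn2 difference rested on that array.

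Within each array, Sesn1 was set against its paralogs, which removes any shift shared by all 3 sestrin probesets. Sesn1 minus Sesn3 was -0.23 on both ethanol arrays, and -0.47, -0.44, -0.37 and -0.54 with saline (arrays 1, 3, 5 and 6). Sesn1 minus Sesn2 was 3.84 and 3.75 with ethanol, against 3.36, 3.64, 3.66 and 3.43 with saline. For both, each ethanol array lay above every saline array, and the group means differed by 0.22 against Sesn3 and 0.27 against Sesn2. The second of these is smaller than the range of the saline arrays, from 3.36 to 3.66. Sesn2 minus Sesn3 overlapped between the groups, at -4.07 and -3.99 with ethanol and -4.08 to -3.82 with saline. The size of such a difference between 2 probesets carries no meaning, and these values are given without a test because the same arrays brought Sesn1 to notice. An exact permutation test over 2 and 4 arrays cannot go below p = 0.0667.

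**Figure D2:**
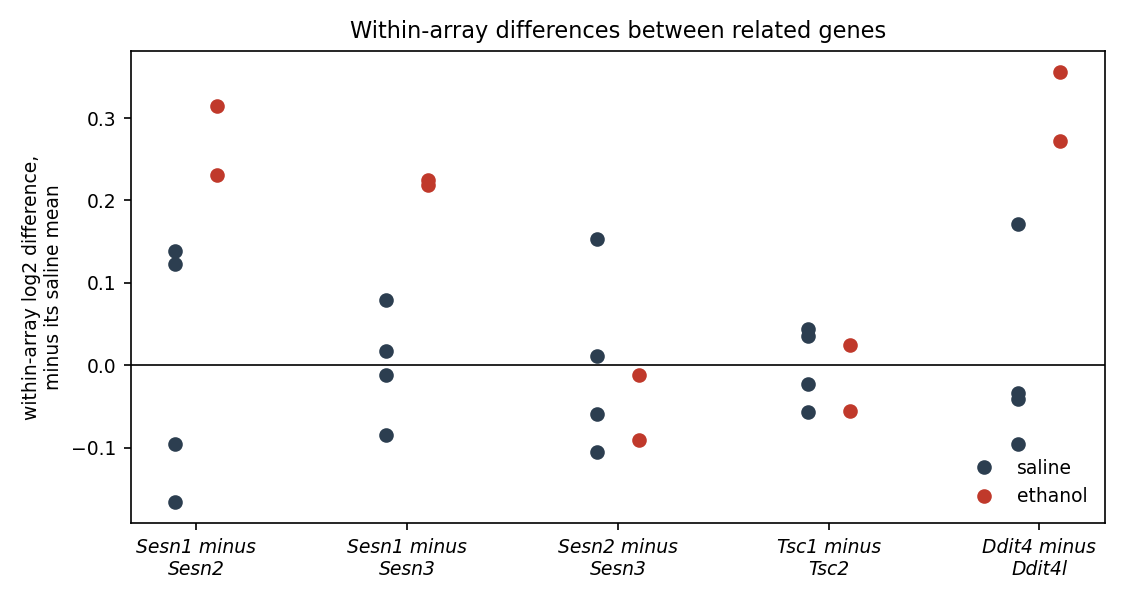
Within-array log2 difference between related genes, with the saline mean of each pair set to 0 (vertical axis). Points are arrays. Sesn1 minus Sesn2, Sesn1 minus Sesn3 and Ddit4 minus Ddit4l are higher on both ethanol arrays than on any saline array, while Sesn2 minus Sesn3 and Tsc1 minus Tsc2 overlap.

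Ddit4 encodes REDD1, a short-lived protein that activates the TSC complex and so shuts off mTORC1 under stress. With ethanol its level was 8.99 (array 2) and 8.91 (array 4), and with saline 8.69, 8.55, 8.65 and 8.80 for arrays 1, 3, 5 and 6. Both ethanol arrays were above all saline arrays, by 0.11 at the nearest. Means were 8.95 ± 0.06 (SD, n = 2) and 8.67 ± 0.10 (SD, n = 4). The log2 difference was 0.28 ± 0.07 (SE), with a 95% interval of 0.12 to 0.44 and a limma adjusted p of 0.165, and 99.3% of tested genes had a lower one. It was 0.24 without saline array 3. No alternative setting brought the adjusted p of Ddit4 under the threshold, and its limma adjusted p ranged from 0.114 to 0.467.

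Ddit4l, the paralog of Ddit4 also known as REDD2, overlapped between the groups. It lay at 6.91 on both ethanol arrays and at 7.00, 6.86, 7.02 and 6.90 with saline (arrays 1, 3, 5 and 6), so the ethanol arrays fell inside the saline range. This gave a log2 difference of -0.03 ± 0.07 (SE), with a 95% interval of -0.18 to 0.11 (limma adjusted p = 0.876). Ddit4 minus Ddit4l was 2.08 and 2.00 within the ethanol arrays and 1.63 to 1.90 within the saline arrays, without overlap. Ddit4 alone already separated the groups on these arrays, so this difference is no further support, and it was not tested.

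The promoter windows of Sesn1 and Ddit4 are shown because these genes had the largest differences of the 10. They are RefSeq sequences of build GRCm38.p6, from 250 bases before to 50 bases after an annotated start, 5′ to 3′ on the strand of the gene. Capitals mark matches to any of 7 motifs searched on both strands. Sesn1 has 2 annotated starts, with windows at chr10:41810324-41810623 (+ strand, upstream start) and chr10:41887189-41887488 (+ strand, downstream start), and the Ddit4 window is chr10:59951721-59952020 (- strand).
Sesn1 upstream start: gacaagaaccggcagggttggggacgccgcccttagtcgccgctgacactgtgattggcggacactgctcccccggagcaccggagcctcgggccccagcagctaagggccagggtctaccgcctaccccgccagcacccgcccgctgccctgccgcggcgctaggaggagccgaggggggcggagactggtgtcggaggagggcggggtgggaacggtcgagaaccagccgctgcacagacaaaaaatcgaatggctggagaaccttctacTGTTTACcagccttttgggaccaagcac
Sesn1 downstream start: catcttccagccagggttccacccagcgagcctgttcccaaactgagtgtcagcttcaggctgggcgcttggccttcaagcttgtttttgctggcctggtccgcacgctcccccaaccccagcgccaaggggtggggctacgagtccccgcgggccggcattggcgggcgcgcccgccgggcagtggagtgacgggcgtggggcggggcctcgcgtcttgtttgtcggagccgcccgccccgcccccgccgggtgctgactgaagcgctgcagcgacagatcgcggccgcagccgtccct
Ddit4: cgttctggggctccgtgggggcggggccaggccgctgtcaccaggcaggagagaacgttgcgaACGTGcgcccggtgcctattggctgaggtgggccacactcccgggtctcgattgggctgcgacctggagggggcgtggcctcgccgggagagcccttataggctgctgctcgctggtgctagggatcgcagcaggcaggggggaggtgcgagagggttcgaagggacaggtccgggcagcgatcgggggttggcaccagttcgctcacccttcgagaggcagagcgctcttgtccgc

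In the upstream Sesn1 window the capitals are a FoxO element (GTAAACA, read on the opposite strand), which begins at base 23 counted from the start, and 3.65% of all 32851 mouse promoter windows hold one. In the Ddit4 window they are the core of the hypoxia response element (ACGTG), 187 bases before the start, which 19.6% of windows hold. The other motifs were the cAMP response element (TGACGTCA), the AP-1 element (TGANTCA), the full palindromic glucocorticoid response element, the C/EBP-ATF element (TTGCATCA) and the E-box (CACGTG, which contains the hypoxia core). They occur in 1.79%, 7.81%, 0.0487%, 0.895% and 7.15% of windows. RefSeq windows were matched for 9 of the 10 genes, Deptor being the exception, and 8 of their 10 windows held none of the 7 motifs. All 10 windows were rich in CpG, with 14 to 31 CpG sites and 57.3% to 71.0% G and C, where the medians of all windows are 7 and 52.7%. A match is a description of the letters and not evidence of a binding site, and no match says only that these letters are missing from the window.

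Castor2 is the paralog of the arginine sensor Castor1 and binds GATOR2. It was at 10.51 and 10.40 with ethanol and at 10.37, 10.03, 10.26 and 10.36 with saline (arrays 1, 3, 5 and 6). The ethanol arrays lay above the saline arrays by 0.026, and saline array 3 was far below the other saline arrays. The log2 difference was 0.20 ± 0.09 (SE, 95% interval 0.0017 to 0.40, limma adjusted p = 0.400). It dropped to 0.12 without saline array 3. A further probeset of Castor2, with a mean of 8.78, gave 0.09. Castor1 itself had a log2 difference of 0.02 (limma adjusted p = 0.924).

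Deptor binds the mTOR kinase in both of its complexes and inhibits it. It was at 7.92 and 7.93 on the ethanol arrays and at 7.76, 7.80, 7.83 and 7.68 with saline (arrays 1, 3, 5 and 6). The groups did not overlap, with a gap of 0.088, and Deptor was the one brake gene for which saline array 3 was not the lowest saline array. Its log2 difference was 0.16 ± 0.06 (SE, 95% interval 0.02 to 0.29, limma adjusted p = 0.336), and 0.17 without saline array 3.

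Akt1s1 encodes PRAS40, which occupies the substrate site of mTORC1 until Akt phosphorylates it. It read 8.15 and 8.12 with ethanol and 8.14, 8.10, 8.16 and 8.28 with saline (arrays 1, 3, 5 and 6), so that only saline array 6 stood away from the rest. The log2 difference was -0.03 ± 0.07 (SE, 95% interval -0.18 to 0.11, limma adjusted p = 0.882). Another probeset, shared by Akt1s1 and Mir707 and with a mean of 5.66 in the background range, was not used.

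Tsc1 and Tsc2 encode the scaffold and the GTPase-activating subunit of the TSC complex, on which Ddit4 acts. Tsc1 was at 9.41 and 9.44 with ethanol and at 9.42, 9.32, 9.48 and 9.52 with saline (arrays 1, 3, 5 and 6). Tsc2 was at 10.51 and 10.46 with ethanol and at 10.52, 10.39, 10.48 and 10.53 on those saline arrays. Both ethanol arrays fell inside the saline range for each gene. Log2 differences were -0.01 ± 0.07 (SE, 95% interval -0.16 to 0.13) for Tsc1 and 0.0031 ± 0.06 (SE, 95% interval -0.13 to 0.14) for Tsc2, with limma adjusted p of 0.961 and 0.991.

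**Figure D3:**
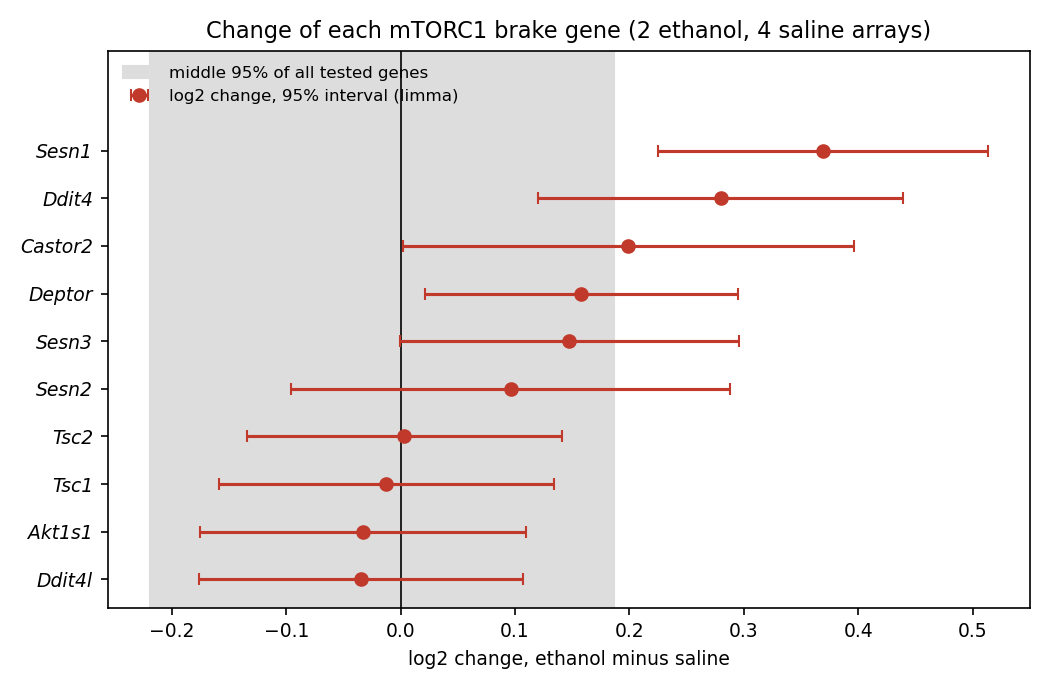
Log2 difference, ethanol minus saline, of each brake gene (points) with its 95% interval from limma (bars), ordered by size. The grey band holds the middle 95% of all tested genes, from -0.22 to 0.19, and Sesn1, Ddit4 and Castor2 lie to its right.

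Over the 10 brake genes the median log2 difference was 0.12, with 7 above 0 and 3 below, while over all tested genes it was -0.02 and 41.4% lay above 0. Both ethanol arrays were above all saline arrays for 5 of the 10 and below for 0, where 7.68% of all tested genes had the first pattern and 14.9% the second. Without saline array 3 these counts were 5 and 0 again, 3 genes were higher at an unadjusted p below 0.05, 6 lay above 0, and the median was 0.07. In that fit 2061 of the 14953 tested genes had an unadjusted p below 0.05 in either direction, and the median over all tested genes was -0.03. Fewer saline arrays make separation of the groups easier for any gene, and its share over all genes without array 3 was not counted. The members' median deviation from the saline mean was 0.11 on ethanol array 2 and 0.13 on ethanol array 4, against 0.0040, -0.10, 0.01 and 0.09 with saline (arrays 1, 3, 5 and 6). Saline array 6 thus came near the ethanol arrays, and it was the highest saline array for 6 of the 10 genes.

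The other components of the pathway were counted in lists. Of 9 tested mTOR complex subunits, 3 tested genes of Rheb and the TSC partner, 14 of GATOR, KICSTOR and amino acid sensors, 12 of the Rag GTPases, Ragulator and folliculin and 10 of AMPK and LKB1, none passed limma's adjusted threshold. At an unadjusted p below 0.05 these lists held 0, 2, 1, 1 and 0 genes, where 3.85% of all tested genes were higher and 8.44% lower. Mtor and Rptor, the kinase and the defining subunit of mTORC1, had log2 differences of 0.0085 and -0.03. The mTORC2 subunit gene Rictor had 0.13 ± 0.06 (SE) and Mlst8, shared by both complexes, 0.15 ± 0.08. Tti2, an assembly factor of mTOR kinases, had 0.06. For the switch on which Ddit4 and the TSC genes act, 2 of the 3 listed genes lay on the lower side without passing. Tbc1d7, the third subunit of the TSC complex, had -0.20 ± 0.07 (SE, limma adjusted p = 0.252), at 10.42 and 10.33 with ethanol and 10.47 to 10.62 with saline. Rheb had -0.13 ± 0.06 (limma adjusted p = 0.406), at 11.05 and 11.09 with ethanol and 11.13 to 11.24 with saline. Rhebl1, a relative of Rheb in the background range, had 0.01.

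In the amino acid branch, the GATOR2 subunit gene Seh1l had a log2 difference of -0.14 ± 0.06 (SE), the GATOR1 subunit gene Nprl3 -0.12 ± 0.07, and Slc38a9, a lysosomal arginine transporter, 0.11 ± 0.06. The folliculin partner genes Fnip1 and Fnip2 had 0.19 ± 0.06 and 0.14 ± 0.07, while folliculin itself (Flcn) had -0.14 ± 0.07. In the energy branch, the AMPK catalytic subunit gene Prkaa1 had -0.09 ± 0.06 and Camkk2, a kinase that activates AMPK, -0.11 ± 0.06. Prkab2, a regulatory subunit gene of AMPK, had 0.07 ± 0.06. None of these 9 differences passed in limma, with adjusted p between 0.253 and 0.668.

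Upstream, Pik3ip1, an inhibitor of PI3-kinase, rose with ethanol, by 0.54 ± 0.08 (SE, limma adjusted p = 0.0435). It was the 1 gene that passed among 15 tested genes of insulin, PI3K and Akt input, a list with a median of 0.04 and 4 genes higher at an unadjusted p below 0.05. Pik3ip1 did not pass without either ethanol array or without saline arrays 1, 3 or 6 (limma adjusted p of 0.0564 to 0.197, at log2 differences of 0.42 to 0.65). Irs2, an insulin receptor adaptor, had 0.22 ± 0.07 and the receptor gene Igf1r 0.25 ± 0.09. Downstream, 0 of 15 tested mTORC1 substrates and effectors passed in limma, and the median was 0.01. At an unadjusted p below 0.05, where 3.85% of all tested genes were higher and 8.44% lower, there was 1 on each side. These were Lpin1, a phosphatidate phosphatase that mTORC1 phosphorylates, at 0.26 ± 0.07, and Larp1, a regulator of ribosomal protein mRNAs, at -0.16 ± 0.06. Grb10, an adaptor that mTORC1 phosphorylates, had -0.15 ± 0.08.

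**Figure D4:**
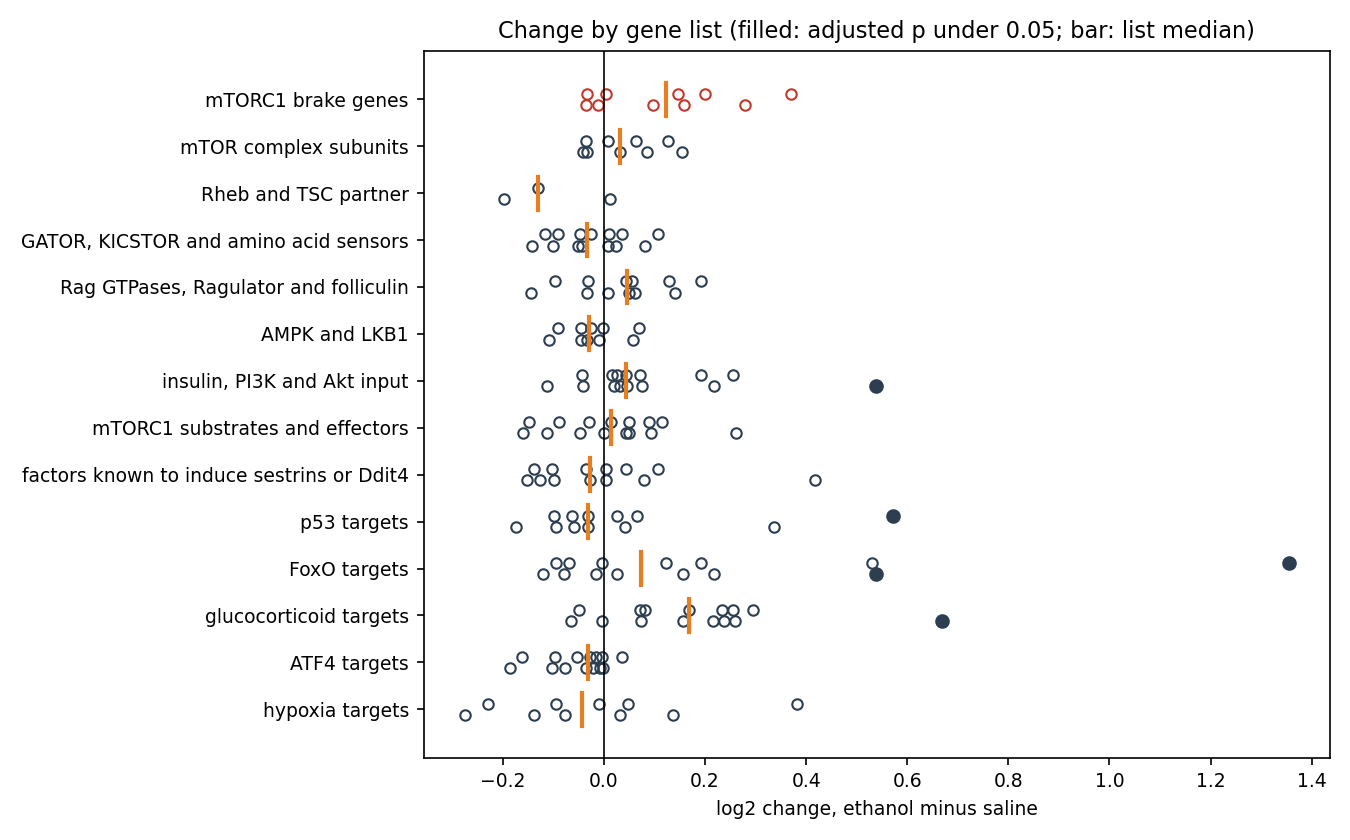
Log2 difference, ethanol minus saline, of each tested gene (circles) in the brake genes and in 13 lists of pathway genes, inducing factors and their targets. Filled circles passed limma's adjusted threshold and orange bars are list medians. No brake gene is filled, and the filled genes are Pik3ip1 (in 2 lists), Btg2, Txnip and Dusp1.

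Genes that are known to induce sestrins or Ddit4, and targets of the same factors, were read beside them. Of 13 tested inducing factors none passed in limma, and 1 was higher and 2 were lower at an unadjusted p below 0.05. Over all tested genes 3.85% were higher and 8.44% lower at that level. Trp53, the gene of p53 itself, was not among the 13, so no value is given for it. Foxo3, a FoxO factor, had a log2 difference of 0.42 ± 0.08 (SE, limma adjusted p = 0.0723), at 8.72 and 8.86 with ethanol and 8.20 to 8.45 with saline. The glucocorticoid receptor gene Nr3c1 had -0.15 ± 0.06 and Atf4 -0.14 ± 0.06. Among 14 tested FoxO targets Txnip and Pik3ip1 rose, 6 were higher at an unadjusted p below 0.05 and 0 lower, and the median was 0.07. Txnip, which restrains glucose uptake, rose by 1.35 ± 0.13 (limma adjusted p = 0.00151). The calls of Txnip, Pik3ip1, Dusp1 and Btg2 were all lost with every probeset as its own row and with no variance prior, where 0 genes of the array passed in limma (2618 and 1535 at an unadjusted p below 0.05). Bcl2l11, the gene of the cell death protein BIM, had 0.53 ± 0.09 (limma adjusted p = 0.0630).

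Of 15 glucocorticoid targets Dusp1, a MAP kinase phosphatase, rose by 0.67 ± 0.09 (limma adjusted p = 0.0149). At an unadjusted p below 0.05, 9 were higher and 0 lower, and the median was 0.17. Over all tested genes 3.85% were higher and 8.44% lower at that level, and the median was -0.02. Without ethanol array 2 or 4 Dusp1 did not pass (limma adjusted p of 0.0803 and 0.270, at 0.72 and 0.62). Hif3a, in the background range, had 0.29 ± 0.07 and Klf9 0.25 ± 0.07. The steroid-induced genes Fkbp5, Sgk1 and Tsc22d3, which were not among the 9 higher targets, had -0.07, 0.08 and 0.07. Of the 15 targets 12 lay above 0 and 3 below, beside 41.4% of all tested genes above 0. Of 12 tested p53 targets Btg2, an antiproliferative gene, rose by 0.57 ± 0.06 (limma adjusted p = 0.00211), Trp53inp1 had 0.34 ± 0.08 (0.115), and the median was -0.03. Mdm2, a classical p53 target, had -0.06 and Aen -0.17 ± 0.09. None of 14 ATF4 targets passed in limma, and 13 lay below 0, where 41.4% of all tested genes lay above 0. At an unadjusted p below 0.05, 2 were lower, beside 8.44% of all tested genes. These were Stc2 (-0.19 ± 0.07) and, in the background range, Trib3 (-0.16 ± 0.07), while Psat1 had -0.10 ± 0.06. None of 10 tested hypoxia targets passed in limma. At an unadjusted p below 0.05, 1 was higher and 3 were lower, beside 3.85% and 8.44% of all tested genes. They were led by Slc2a1 (0.38 ± 0.08), Vegfa (-0.28 ± 0.06) and Ankrd37 (-0.23 ± 0.07), with limma adjusted p of 0.0838, 0.0904 and 0.194. The part of these programmes in the Sesn1 and Ddit4 values was not tested.

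The genes whose profiles over the 6 arrays were most like those of Sesn1 and Ddit4 were found by the root mean square difference between log2 profiles, each centred on its own mean. For Sesn1 these were Jmy, Igfbp3 and Ypel5, at 0.037, 0.040 and 0.041, where the median over all other tested genes was 0.20. Jmy had a log2 difference of 0.31 ± 0.06 (SE), Igfbp3 0.35 ± 0.08 and Ypel5 0.31 ± 0.07, with limma adjusted p of 0.0827, 0.105 and 0.0891. For Ddit4 they were Smoc1, 9530077C05Rik and Lhfp, at 0.011, 0.024 and 0.028, where the median was 0.17. Smoc1 was at 8.92 and 8.86 with ethanol and at 8.62, 8.46, 8.59 and 8.74 with saline (arrays 1, 3, 5 and 6). Its dip on array 3 and height on array 6, as in Ddit4, follow from its choice as the nearest profile on these same arrays. The distances are the smallest among all other tested genes, so their being far below the median is a description and not independent support. None of the 6 genes passed in limma.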

How the data were processed

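Whole-brain RNA pools of 2 ethanol and 4 saline groups of pups were measured on an Affymetrix whole-transcript array, with 200 ng RNA labelled per array, per the labels' protocols. The values that the authors deposited, 1 for each probeset on each array, were read as log2 because they run from 4.10 to 14.9, with no log base stated. The submitters' processing notes name Partek 6.6. How background and scale were corrected, and on which genome build, is not given in the sources, and a different normalization could move small differences such as these.

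Of 35556 probesets, 21789 had 1 gene, 1621 several and 12146 were unnamed here. Symbols were updated through gene IDs for 21698. Each of the 19938 genes was read from its probeset of highest mean (999 had several), and the dimmest 25% (4985 genes, up to 5.55) were left out. A moderated linear model (limma 3.58.1 under R 4.3.3, lmFit then eBayes) was fitted to all 6 arrays with treatment as the only term, two-sided, with Benjamini-Hochberg adjustment over 14953 genes and a threshold of 0.05. The code was tested on simulated data. Residual degrees of freedom were 4 and the prior added 8.10. Pools came from separate animals, the p-values set each difference against the spread between pools, and the number of arrays limits precision. Littermates were spread over both groups and no litter term could be fitted, so pools that share litters may not be fully independent. The effect of this on the p-values was not tested. The 10 members and all gene lists were chosen with earlier results of these data known. From each list other than the marker lists up to 3 tested genes with the smallest unadjusted p were to be named, and Mtor, Rptor, Castor1, Fkbp5, Sgk1, Tsc22d3, Mdm2 and 7 markers were named in addition after their values were seen. Promoter sequences are from RefSeq (GRCm38.p6). Alternatives were 9 other settings and leaving out each of the 6 arrays.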

Additional observations from a re-analysis of the deposited data

How the results depend on the processing

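No paired analysis was possible because the groups share no replicate number in the labels, although littermates were spread over both. Of the 15 alternatives, Sesn1 passed limma's adjusted threshold in 4, as the 1 brake gene to do so: with the dimmest 50% of genes left out (adjusted p = 0.0378), with quantile normalization (0.0440), with a mean-variance trend (0.0181) and with array weights (0.0450). No brake gene passed in the other 11, including every fit without 1 array (count 0 to 0). In those 4 settings the count over all genes was 52 (22 higher, 30 lower), 23 (17 and 6), 43 (23 and 20) and 56 (21 and 35), against 12 (9 and 3) in the reported fit. In limma it was 0 with every probeset as its own row (2618 at an unadjusted p below 0.05), 0 without a variance prior (1535), and 4 to 16 when 1 array was left out, the lowest without ethanol array 4. The cause of these moves was not tested. The members' median stayed between 0.07 and 0.15, lowest without saline array 3. The 0.15 came with the dimmest 50% of genes left out, where only 8 of the 10 were tested. With all 10 tested the highest median was 0.14, with quantile normalization. Sesn1, Sesn3, Ddit4, Deptor and Castor2 were above 0 in all 15 alternatives, and Sesn2 and Ddit4l kept their sign in the 14 that tested them. Genes near 0 changed sign: Tsc2 had -0.019 with array weights and -0.028 to 0.031 when 1 array was left out, Tsc1 -0.051 to 0.015 and Akt1s1 -0.056 to 0.0038. The values with turned signs were -0.024 and -0.028 for Tsc2 without ethanol array 2 and saline array 3, 0.0030 and 0.015 for Tsc1 without saline arrays 5 and 6, and 0.0038 for Akt1s1 without saline array 6. Sesn2 had a mean of 6.48, not far above the background guide of 6.21. Its 95% interval in the reported fit ran from -0.10 to 0.29, so the direction of its difference was not settled.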
